A study of Bos grunniens and Bos grunniens x Bos taurus with 6 samples.

Results

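The testis of 1 sexually mature cattle-yak, a cross between cattle and yak, was set against the testis of adolescent yaks (Bos grunniens) of 18 months in single-cell RNA libraries made with the 10x Genomics method. The comparison held the 1 library labelled cattle-yak and the 2 libraries labelled yak of 18 months (replicates 3 and 4), none of which held spermatid-like cells. A cell was kept with at least 300 genes and at most 20% of its UMIs (counted RNA molecules) on mitochondrial features, which gave 4245 and 4211 cells in replicates 3 and 4 and 3815 in the cattle-yak, 12271 of the 31071 cells of all 6 libraries. All 3 libraries came from frozen tissue that was thawed, digested with collagenase IV, hyaluronidase and trypsin, and cultured in medium before loading. The labels give "Germ cell" as the cell line of every sample, although the tissue is testis and most cells carried somatic genes. The labels name 1 cattle-yak, and they do not say that replicates 3 and 4 came from separate animals. Hybrid genotype, sexual maturity and the single library cannot be told apart in this comparison, so each value is given as a ratio to each yak library, with no test. Ratios carry 95% exact conditional intervals in brackets, and shares carry 95% exact binomial (Clopper-Pearson) intervals. Both cover counting error only.

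Spermatogenesis runs from spermatogonia, the dividing stem and progenitor cells at the tubule wall, through spermatocytes, which pair and recombine their chromosomes in meiosis, to haploid spermatids. Sertoli cells nurse the germ cells inside the tubule. Peritubular muscle cells, stroma, vessels, macrophages and lymphocytes lie outside it. Males of the cattle-yak are known to be sterile, with germ cells that are lost around meiosis, while in an adolescent yak spermatogenesis is still being set up.

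The 3 libraries held 5104 to 7373 barcodes and 9575446 (cattle-yak) to 24762829 (replicate 3) UMIs. The median member cell had 1883 and 2132 UMIs in replicates 3 and 4 and 1458 in the cattle-yak. Of barcodes with at least 300 genes, the mitochondrial filter took 37.97% and 20.3% in replicates 3 and 4 and 14.1% in the cattle-yak, and the libraries shared 3 or 4 barcodes in pairs. Replicates 3 and 4 themselves differed: 45.6% of the features measured over all cells were at least 2-fold apart between them. A feature was therefore called higher or lower in the cattle-yak only if it was at least 2-fold apart from each of the 2 yak libraries in CPM (its counts scaled to the library total), with both intervals excluding equality.

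The cattle-yak library held few germ cells and, in the main setting, almost no Sertoli-like cells. It held more lymphocyte-like and mural-like cells than either yak library. After doublets were removed, 3978 and 3994 cells of replicates 3 and 4 and 3642 of the cattle-yak were clustered together with the other 3 libraries, and clusters were named from marker genes. Spermatogonium-like cells made up 17.7% (16.5–18.9) and 14.1% (13.03–15.2) of replicates 3 and 4 and 2.28% (1.82–2.82) of the cattle-yak. Sertoli-like cells made up 4.299% (3.69–4.98) and 25.96% (24.6–27.4) in the yaks and 0.1098% (0.0299–0.281), 4 cells, in the cattle-yak. The yak libraries thus bracketed a wide range for Sertoli-like cells, and the cattle-yak lay below both. The cattle-yak value rested on how clusters were named: it was 0% with a mitochondrial maximum of 10%. It was 3.93% at Leiden resolution 1, close to the 4.17% of replicate 3. With the 3 libraries clustered alone it was 4.20%, against 4.32% in replicate 3. With at least 500 genes per cell it was 8.65% and lay between the yaks (3.55% and 35.7%).

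Outside the tubule the order was mixed. Lymphocyte-like cells were 13.4% (12.4–14.5) and 6.99% (6.21–7.82) in the yaks and 36.5% (34.95–38.1) in the cattle-yak, where they formed the most numerous class. Mural-like cells, the muscle cells and pericytes of tubule and vessel walls, were 3.65% (3.08–4.28) and 3.05% (2.54–3.64) against 9.56% (8.62–10.6). Macrophage-like cells were few, 1.26% (0.934–1.65) and 1.25% (0.931–1.65) against 2.28% (1.82–2.82). Stroma-like cells were 41.4% (39.8–42.9) and 30.1% (28.7–31.5) in the yaks and 18.6% (17.3–19.9) in the cattle-yak, but with a mitochondrial maximum of 10% the cattle-yak lay between the yaks (22.99% and 10.8% against 11.4%). Endothelial-like cells, the lining of vessels, were at 17.999% (16.8–19.2), 16.1% (14.97–17.3) and 15.5% (14.4–16.7), but with a mitochondrial maximum of 10% at 33.2% and 26.3% against 17.1%. Shares within a library sum to 100%, so the absolute number of each class per testis was not measured.

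**Figure D1:**
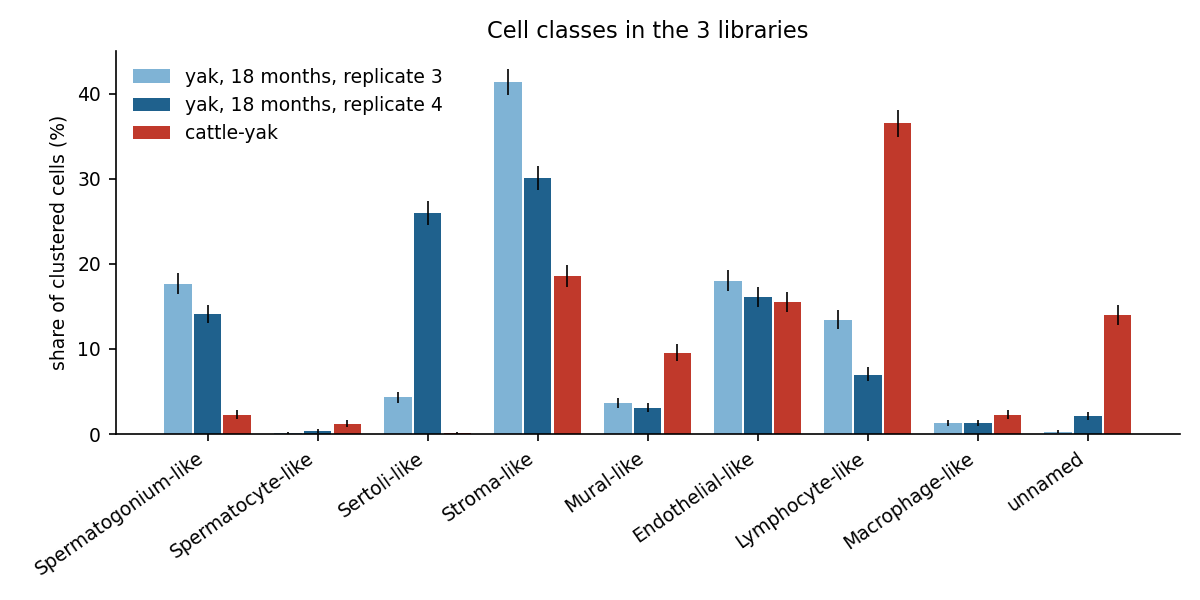
Share of clustered cells (%, vertical axis) in each named class and in unnamed clusters, for 18-month replicates 3 and 4 and the cattle-yak; bars are single libraries and lines are 95% exact binomial intervals. Lymphocyte-like cells reach 36.5% in the cattle-yak, and spermatogonium-like cells 2.28%.

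Germ cells of all stages together were 17.7% (16.6–18.97) and 14.4% (13.3–15.5) of cells in replicates 3 and 4 and 3.49% (2.92–4.14) in the cattle-yak. By cluster name in the main setting, few of the yak germ cells were spermatocyte-like, and a larger part of the cattle-yak's were. Spermatocyte-like cells were 0.425% (0.0877–1.24) of germ cells in replicate 3 (3 of 706), 2.26% (1.21–3.83) in replicate 4 (13 of 576) and 34.6% (26.4–43.6) in the cattle-yak (44 of 127). When the 3 libraries were clustered without the others, these shares were 14.7% (11.7–18.02), 15.3% (12.4–18.6) and 41.1% (32.4–50.3). As a share of all cells, spermatocyte-like cells were 0.0754% (0.0156–0.2202) and 0.325% (0.173–0.556) in the yaks and 1.21% (0.879–1.62) in the cattle-yak, and that order turned with the clustering: with the 3 libraries alone it was 1.91% and 2.103% against 1.40%. Spermatid-like cells numbered 0 in each library, with exact upper limits of 0.521% and 0.638% of germ cells in the yaks and 2.86% in the cattle-yak.

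Among spermatogonium-like cells the balance between 2 clusters also differed. Cluster 28 carried all 9 spermatogonium markers in the files, among them GFRA1, the GDNF co-receptor of stem cells, and ETV5 and ID4, transcription factors of the stem cell pool. Cluster 18 carried 5 of the 9 (UCHL1, ZBTB16, DMRT1, LIN28B and NANOS3). Cluster 28 held 42.8% (39.1–46.6) of the class in replicate 3, 23.6% (20.2–27.4) in replicate 4 and 2.41% (0.293–8.43) in the cattle-yak, which is 2 of 83 cells. Cells of cluster 28 were deep, with a median of 8465 UMIs against 1032.5 in cluster 18, and the class median in the cattle-yak was 857 UMIs against 2482 and 1559 in the yaks. The part of depth in this split was not tested.

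Over all member cells of a library, the cattle-yak was higher than each yak library for 572 of 13128 features (4.36%) and lower for 1628 (12.4%). The features that were lower included germline genes, and those that were higher included T cell, smooth muscle and pericyte genes. The median log2 ratio over all features was -0.38, and with TMM scaling, which moved it to -0.07, 967 features were higher and 1439 lower, so that the higher share of calls was 40.2% instead of 26%. Without replicate 3 as a control 3577 features were called, and without replicate 4 6370, against 2200 with both. Without lymphocyte-like cells the calls were 514 higher and 1379 lower. In these sums fewer cells of a type and less RNA per cell cannot be told apart.

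Of 14 stem and progenitor genes of spermatogonia, 8 were lower and 0 higher (median log2 ratio -2.47). UCHL1, a ubiquitin hydrolase abundant in spermatogonia, was at 806 and 953 CPM in replicates 3 and 4 and 138 CPM in the cattle-yak, ratios of 0.171 (0.161–0.182) and 0.145 (0.136–0.154). RNA of NANOS3, an RNA-binding protein that protects germ cells, was 39.9 and 25.7 against 11.6 CPM. PIWIL4, the PIWI protein of early male germ cells, was at 69.5 and 10.6 CPM in replicates 3 and 4 and 0.741 CPM in the cattle-yak, ratios of 0.0107 (0.00391–0.0233) and 0.0699 (0.0253–0.155). EGR4, a transcription factor of progenitors, had 0 counts in the cattle-yak, against 14.4 and 1.66 CPM. With a floor of 3 counts per library it was at least 38.8-fold and 4.47-fold lower. The cattle-yak lay below both yaks for each of these genes.

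Of 6 genes of differentiation and meiotic entry 3 were lower: DMRT1, DMRTB1 and ELAVL2. DMRT1, which holds back meiosis in spermatogonia, was at 113 and 82.9 CPM in replicates 3 and 4 and 18.5 CPM in the cattle-yak, ratios of 0.163 (0.137–0.193) and 0.223 (0.187–0.265). DMRTB1, which acts at the switch to meiosis, was 26.7 and 24.7 against 10.4 CPM, and with TMM scaling it was no longer called.

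The piRNA pathway, whose small RNAs silence transposons in the germline, had 10 of 14 measured members lower and 0 higher (median -2.24). MAEL, a piRNA pathway protein, was at 158 and 83.98 CPM in replicates 3 and 4 and 18.4 CPM in the cattle-yak, ratios of 0.116 (0.09801–0.137) and 0.219 (0.184–0.2599). The Tudor protein TDRD1 was 58.7 and 14.9 against 5.31 CPM, the co-chaperone FKBP6 84.7 and 16.2 against 2.59 CPM and ASZ1 88.8 and 38.98 against 12.2 CPM. Replicate 3 was above replicate 4 for each of these 4 genes, and the cattle-yak below both.

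Most listed meiotic genes were not called, and the calls went in both directions. Over all features 12.4% were lower and 4.36% higher. Of 19 recombination genes 4 were lower and 1 higher, and of 11 genes of the synaptonemal complex and meiotic cohesin 0 were lower and 1 higher. The median of the latter list was -0.18, and with TMM scaling it turned to 0.13. TEX15, which acts in recombination and transposon silencing, was at 237 and 57.2 CPM in replicates 3 and 4 and 11.9 CPM in the cattle-yak, ratios of 0.04999 (0.0404–0.0612) and 0.207 (0.166–0.256). REC114, needed for the double-strand breaks of meiosis, was 116 and 63.04 against 13.96 CPM. SYCP3, of the axis of paired chromosomes, went the other way at 20.4 and 18.3 CPM in replicates 3 and 4 and 58.4 CPM in the cattle-yak, ratios of 2.87 (2.501–3.298) and 3.19 (2.75–3.72). MEIOB, which holds single-stranded DNA during recombination, was at 5.42 and 1.46 CPM in replicates 3 and 4 and 17.9 CPM in the cattle-yak, ratios of 3.31 (2.54–4.31) and 12.3 (7.81–20.2). In the mature yak of 4 years (replicate 5) SYCP3 reached 88.002 CPM and MEIOB 80.8 CPM. The cattle-yak thus lay between the adolescent yaks and the mature yak for both.

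Genes of later stages were low in all 3 libraries. CCNA1, the cyclin of late spermatocytes, was 15.6 and 5.63 against 1.11 CPM, and the acrosome gene SPACA1 12.3 and 6.36 against 2.84 CPM. GAPDHS, the sperm form of a glycolytic enzyme, had 0 counts in the cattle-yak against 24.02 and 7.62 CPM, at least 64.8-fold and 20.6-fold lower. HSPA2, a chaperone of spermatocytes, was higher, 14.4 and 14.98 against 34.8 CPM, but it was also called higher within stroma-like cells. Of 6 measured late spermatocyte genes it was the 1 higher and CCNA1 the 1 lower. Within spermatogonium-like cells 0 of the 6 were called. Of 13 spermatid and sperm genes in the files, 5 had enough counts to be measured and 2 of them were lower.

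The 15 lower and 15 higher genes with the most extreme ratios, taken by rank, added further names. MORC1, a silencer of transposons in germ cells, was at 89.6 and 18.2 CPM in replicates 3 and 4 and 0.494 CPM in the cattle-yak, ratios of 0.00552 (0.001502–0.0142) and 0.0271 (0.00733–0.0702). FIGLA, a germ cell transcription factor best known from oocytes, stood at 18.2 and 11.998 CPM and 2 counts in the cattle-yak, ratios of 0.0136 (0.00164–0.0495) and 0.0206 (0.00248–0.0755). The homeobox gene LHX2 stood at 32.99 and 9.15 CPM and 1 count, ratios of 0.00374 (0.0000947–0.0209) and 0.0135 (0.000339–0.0765). Within spermatogonium-like cells MORC1 was still lower, at 190.1 and 89.5 CPM and 3 counts in the cattle-yak, ratios of 0.0818 (0.0169–0.2395) and 0.174 (0.0356–0.513). FIGLA had 0 counts there against 37.96 and 56.4 CPM, at least 2.44-fold and 3.63-fold lower. Among the higher genes, OMD and ASPN, small proteoglycans of connective tissue, were 1.86 and 0.331 against 31.9 CPM and 9.902 and 11.8 against 99.9 CPM. RXFP1, the relaxin receptor, was 1.86 and 2.45 against 20.4 CPM, the protease ADAMTS4 13.7 and 12.3 against 104 CPM and GPR183, which guides lymphocytes, 8.81 and 5.502 against 71.4 CPM.

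**Figure D2:**
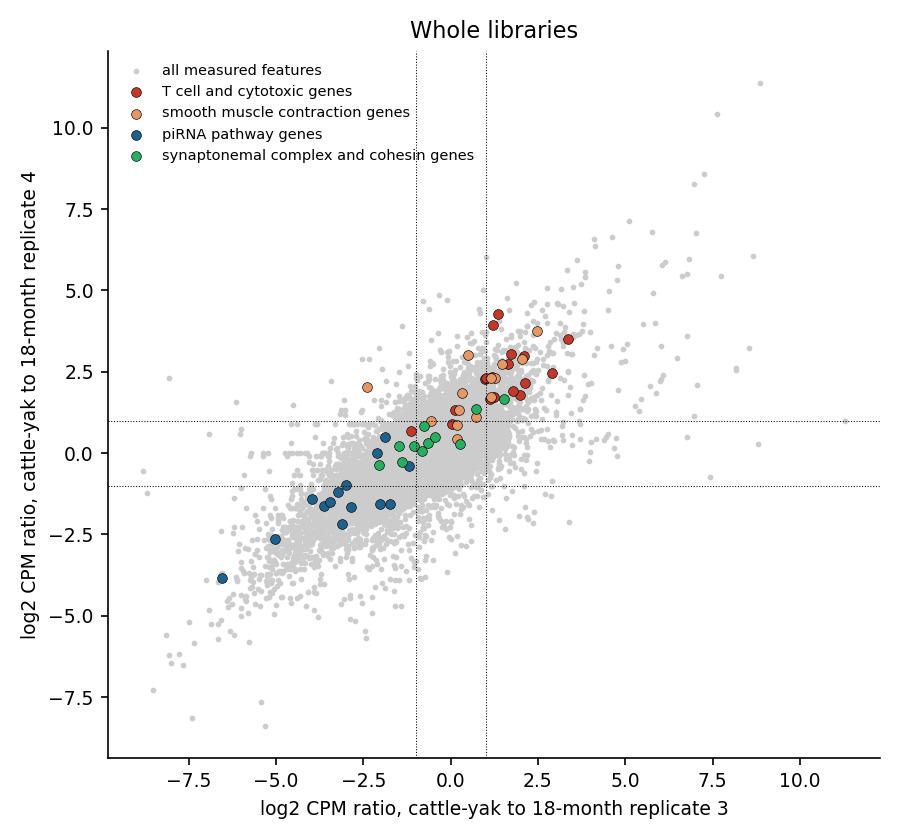
Log2 CPM ratio of the cattle-yak to replicate 3 (horizontal axis) and to replicate 4 (vertical axis) over all member cells; each point is 1 feature, dotted lines mark 2-fold, and 4 gene lists are coloured. T cell genes lie towards the upper right (median 1.87) and piRNA genes towards the lower left (median -2.24).

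Within the spermatogonium-like cells, few of the listed germline genes were called. Of 11202 features 216 (1.93%) were higher and 355 (3.17%) lower, with a median of 0.00, and the 83 cells of the cattle-yak gave 192956 UMIs against 7955692 and 2959326. Of the 14 stem and progenitor genes 1 was lower, of the 6 differentiation genes 0, of 11 synaptonemal genes 0, and of 14 piRNA genes 1. No member of these 4 lists was higher, and at this depth a 2-fold difference in a gene of few counts was not detectable. Without replicate 3 839 features were called, and without replicate 4 1591, against 571 with both. Clustering the 3 libraries alone turned the split to 341 higher and 291 lower, and in cluster 18 alone 166 were higher and 256 lower.

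UCHL1 was at 1696 and 3851 CPM in replicates 3 and 4 and 2897 CPM in the cattle-yak within these cells, so that the cattle-yak lay between the yaks. For MAEL the levels were 335 and 389 CPM in replicates 3 and 4 and 394 CPM in the cattle-yak, ratios of 1.17 (0.922–1.47) and 1.01 (0.791–1.28). DMRT1 was 240.3 and 347 against 384 CPM, ASZ1 189 and 183 against 171 CPM and the meiotic cohesin SMC1B 359.7 and 351 against 394 CPM. The 3 libraries were within 2-fold of each other for MAEL, DMRT1, ASZ1 and SMC1B. Over whole libraries MAEL, DMRT1 and ASZ1 had been lower, whereas SMC1B (171 and 78.5 against 64.98 CPM) had not been called.

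A few germline genes were lower within the class as well. FOXO1, a transcription factor that maintains spermatogonial stem cells, was at 220.1 and 97.3 CPM in replicates 3 and 4 and 46.6 CPM in the cattle-yak, ratios of 0.212 (0.0967–0.403) and 0.479 (0.217–0.923). HSF2BP, which brings recombinases to breaks, was at 134 and 132 CPM in replicates 3 and 4 and 62.2 CPM in the cattle-yak, ratios of 0.463 (0.238–0.812) and 0.472 (0.242–0.834), and with TMM scaling it was no longer called. FKBP6 was 179.9 and 72.7 against 31.1 CPM. CAMTA2, a transcription activator, stood at 131 and 127 CPM and 1 count in the cattle-yak, ratios of 0.0396 (0.001003–0.221) and 0.0407 (0.00103–0.228). TEX15 was 469.7 and 205 against 129.6 CPM, ratios of 0.276 (0.178–0.408) and 0.632 (0.406–0.942), and was not called. Cluster 28 held 42.8% and 23.6% of the class in the yaks and 2.41% in the cattle-yak, and its part in these differences was not tested.

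LAMTOR3, a lysosomal scaffold of growth signalling, was higher in the class, at 5.78 and 10.1 CPM in replicates 3 and 4 and 109 CPM in the cattle-yak, ratios of 18.8 (10.7–32.2) and 10.7 (5.84–19.4). The immediate early genes KLF2 (81.1 and 75.4 against 259 CPM) and ATF3 (7.67 and 6.76 against 36.3 CPM) were higher too, each at under 20% of its level in another class, so that free RNA in the droplets is a possible source. Markers of other classes moved with these cells. Summed lymphocyte markers were 38.6 and 25.7 against 244 CPM and summed stroma markers 99.05 and 56.8 against 254 CPM. Of 8 lymphocyte markers 1, 4 and 3 were at 0 in replicate 3, replicate 4 and the cattle-yak, and of 10 stroma markers 0, 0 and 3. Their part in the higher calls was not tested.

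**Figure D3:**
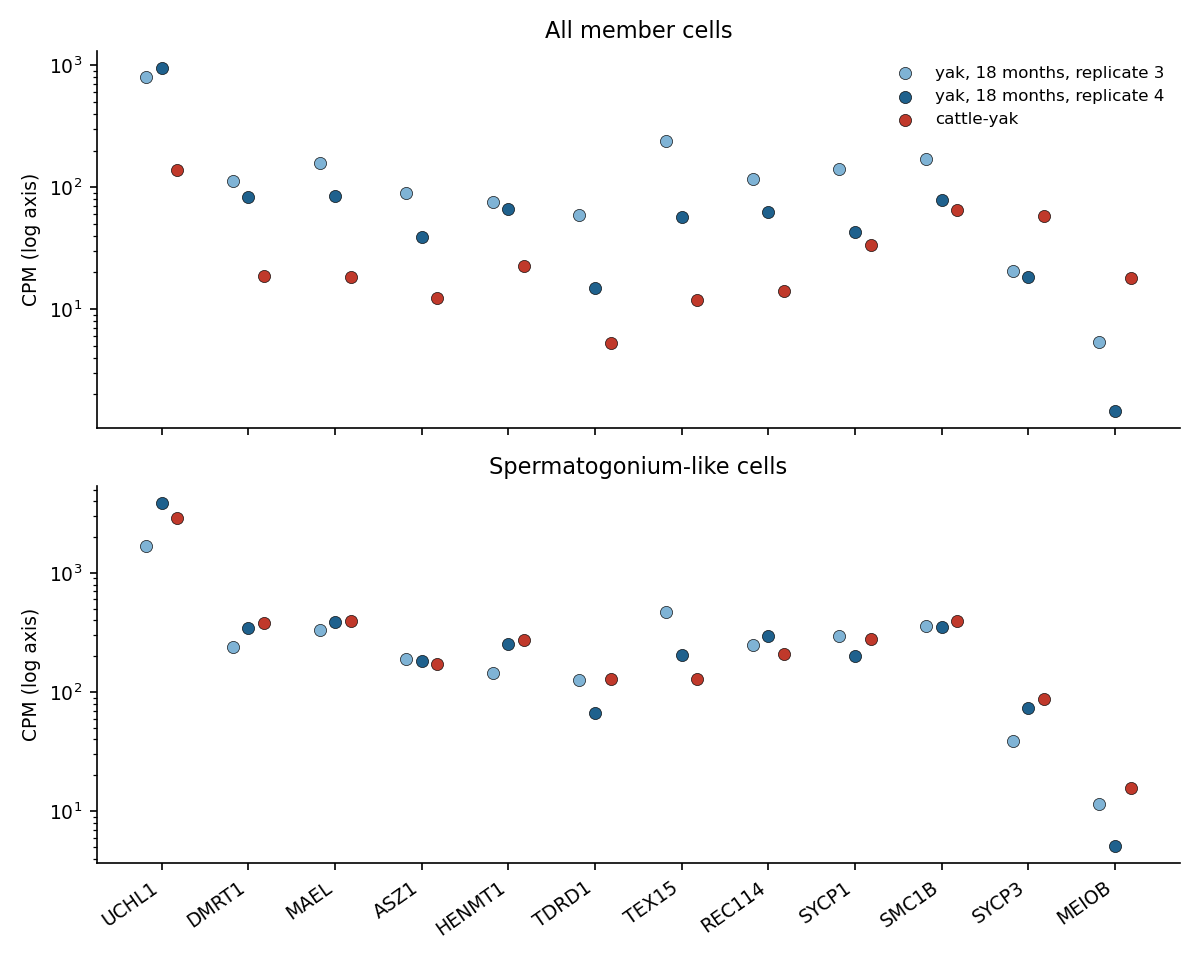
CPM (log axis) of 12 germline genes in all member cells (upper panel) and in spermatogonium-like cells (lower panel); points are single libraries. The cattle-yak lies below both yaks for UCHL1, DMRT1 and MAEL in the upper panel, and within 2-fold of replicate 4 for each of them in the lower panel.

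Most spermatocyte-like cells of the cattle-yak, 40 of 44, lay in cluster 30, against 193 of 801 in the 4-year yak, whose other 608 lay in cluster 35. Cluster 30, which carried all 11 spermatocyte markers, held 13 cells of replicate 4, 40 of the cattle-yak and 193 of the 4-year yak, while replicate 3 had 3 spermatocyte-like cells in all. SYCP3 was at 338 CPM in replicate 4, 1394 in the cattle-yak and 792 in the 4-year yak. MEIOB was at 38.7, 377 and 241 CPM in the same order. HORMAD1, which marks unpaired chromosome axes, was at 116, 246 and 158 CPM. The cattle-yak had the highest value of the 3 for each of these genes, and for DMC1, the meiotic recombinase, as well (67.7, 124 and 101 CPM).

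Later genes gave few counts in cattle-yak cells of cluster 30. PIWIL1, the PIWI protein of pachytene, had 1 count in replicate 4, 2 in the cattle-yak and 30 in the 4-year yak, and CCNA1 had 0, 2 and 28. CRISP2, an acrosome and tail protein, had 1, 3 and 101. All of these genes but CRISP2 are markers that named the cluster, the cells were clustered on such genes, and the 3 libraries differ in cells and depth, so the values describe cluster 30 only.

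Of 11 measured Sertoli cell genes 3 were lower over whole libraries and 0 higher (median -0.82), beside 12.4% of all features lower. INHA, the inhibin alpha chain, was at 345 and 2758 CPM in replicates 3 and 4 and 62.8 CPM in the cattle-yak, ratios of 0.182 (0.166–0.199) and 0.0228 (0.0208–0.0248). FSHR, the receptor for follicle-stimulating hormone, was 4.54 and 21.7 against 1.24 CPM. INHBA, an activin and inhibin beta chain, was 129 and 142 against 21.4 CPM. Replicate 4, with the larger Sertoli-like share, was the highest for each of the 3 genes, though the yaks lay close together for INHBA. INHBA was also lower within stroma-like cells, as given below, where replicate 3 was the higher yak. Among the named genes with the lowest ratios, TFF2, a secreted trefoil factor, had 0 counts in the cattle-yak against 16.03 and 74.9 CPM, at least 43.3-fold and 202-fold lower. UPK3A, a urothelial membrane protein, stood at 45.2 and 19.3 CPM and at 1 count in the cattle-yak, ratios of 0.00273 (0.0000691–0.0153) and 0.006404 (0.000162–0.03596).

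Part of the cattle-yak library lay in clusters without a name, 13.98% of its cells against 0.277% and 2.13% in the yaks. Cluster 29 held 326 cells of the cattle-yak (8.95%) and 0 and 14 of the yaks. In the cattle-yak it carried INHA at 812 CPM, the Sertoli regulator CITED1 at 483 and GATA4 at 93.7, with FSHR and WT1 at 12.01 CPM each. It also carried the defensin DEFB123 at 1501 CPM and WFDC2, a secreted protease inhibitor of epithelia, at 586. Its best list was lymphocyte, with CCL5 at 1021 CPM, NKG7 at 134, IL7R at 33.6 and CD3D at 21.6, just ahead of Sertoli, and the naming rule was not met. DEFB123 and WFDC2 here, and the genes of the next cluster, were chosen after their values were seen.

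Cluster 31 held 139 cells of the cattle-yak (3.82%) and 0 and 1 of the yaks. Its cattle-yak cells carried WFDC2 at 11887 CPM, PAX8, a transcription factor of duct epithelia, at 219 and LTF, lactoferrin, at 203, with FSHR at 0. Its best list was Sertoli, with 4 raised markers of 9: SOX9 at 188 CPM, WT1 at 94.1, CITED1 at 30.3 and TF, transferrin, at 504. Over whole libraries WFDC2 was 17.6 and 57.3 against 585 CPM. Each of these clusters came mostly from 1 library, and whether it marks that library or a cell type was not tested. Cluster 38, 69 cells of the 4-year yak, had DEFB123, MAGEA10, CITED1, CLEC12B and SNCB among its leading genes, as cluster 29 did.

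In stroma-like cells 7 of 26 matrix genes, fibulins among them, and 6 of 14 smooth muscle genes were higher in the cattle-yak, and 4 of 18 immediate early and heat shock genes were lower. Of 7993 features 328 (4.1%) were higher and 386 (4.83%) lower (median -0.21). The class was held by different clusters: mostly cluster 16 in replicate 3 (1495 of 1645 cells), 19 in replicate 4 (878 of 1202) and 10 in the cattle-yak (645 of 676). Without replicate 3 1264 features were called, and without replicate 4 2630, against 714 with both.

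Of 26 collagen and matrix genes 7 were higher and 1 lower (median 0.83). FBLN2, fibulin-2, was at 52.02 and 63.4 CPM in replicates 3 and 4 and 640.4 CPM in the cattle-yak, ratios of 12.3 (10.1–15.1) and 10.1 (8.07–12.8). FBLN1 was 339 and 409 against 1060.5 CPM and fibronectin, FN1, 5.59 and 3.56 against 50.2 CPM. OGN, a small proteoglycan, was 1389 and 199 against 2925 CPM, with replicate 3 far nearer to the cattle-yak than replicate 4. MGP, an inhibitor of calcification, was the lower one, at 3182 and 4821 CPM in replicates 3 and 4 and 1188 CPM in the cattle-yak, ratios of 0.374 (0.3497–0.399) and 0.247 (0.231–0.263).

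Secreted and signalling genes separated the libraries further. S100A4, a calcium-binding protein of motile fibroblasts, was at 16.8 and 27.1 CPM in replicates 3 and 4 and 1835 CPM in the cattle-yak, ratios of 109 (79.7–154) and 67.8 (49.2–96.2). APOD, an apolipoprotein of fibroblasts, was at 488 and 431 CPM in replicates 3 and 4 and 3340.3 CPM in the cattle-yak, ratios of 6.85 (6.395–7.34) and 7.75 (7.101–8.48), and SMOC2, a matricellular protein, at 46.4 and 61.2 CPM in replicates 3 and 4 and 630.2 CPM in the cattle-yak, ratios of 13.6 (11.02–16.8) and 10.3 (8.19–13.1). The replicates lay within 2-fold of each other for all 3 genes. The carbonic anhydrase CA3, at 1.29 and 0.712 against 207 CPM, and the complement protein C3, at 0.8599 and 0 against 78.8 CPM, were at most 1.29 CPM in the yaks. S100A4, CA3 and C3 were named by rank of their ratios, APOD and SMOC2 after their values were seen. CYP11A1, which makes pregnenolone from cholesterol, was 6.02 and 0.712 against 91.3 CPM, ratios of 15.2 (8.54–28.999) and 128 (22.4–5128), and was the only one of 4 measured steroid synthesis genes that was called.

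Growth factor genes differed in opposite directions. IGF1, the growth factor, was at 93.7 and 86.9 CPM in replicates 3 and 4 and 361 CPM in the cattle-yak, ratios of 3.85 (3.23–4.595) and 4.15 (3.36–5.16). The binding proteins IGFBP3 (76.1 and 219 against 25.1 CPM) and IGFBP4 (138 and 123 against 55.9 CPM) were lower, IGFBP4 not with TMM scaling. INHBA was at 649.6 and 478 CPM in replicates 3 and 4 and 44.5 CPM in the cattle-yak, ratios of 0.0685 (0.0485–0.0941) and 0.0932 (0.0657–0.129). CYP26B1, which breaks down retinoic acid, was 154 and 30.6 against 346 CPM, and the receptor partner RAMP2 581 and 793 against 2768 CPM. SOX9, better known from Sertoli cells, was 33.5 and 17.1 against 137 CPM. PTGES, which makes prostaglandin E, was 0.8599 and 0 against 67.4 CPM, and DLK1, a Notch ligand relative of immature cells, 34.8 and 17.1 against 1.14 CPM. DLK1 was at under 20% of its level in another class, so that free RNA is a possible source.

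Of 14 smooth muscle genes 6 were higher in stroma-like cells and 0 lower (median 1.21). TAGLN, transgelin, was at 542 and 499 CPM in replicates 3 and 4 and 2269.5 CPM in the cattle-yak, ratios of 4.19 (3.899–4.496) and 4.55 (4.17–4.96). Smooth muscle actin, ACTA2, was 158 and 68.4 against 439.5 CPM, tropomyosin TPM2 142 and 79.04 against 989 CPM and myosin MYH11 70.9 and 17.1 against 193 CPM. For TAGLN, ACTA2 and TPM2 the level was under 20% of that in another class, so that free RNA is a possible source. Summed mural markers in the class, of which 0 of 10 were at 0 in any library, were 1537 and 977 against 3352 CPM, and mural-like cells were also more numerous in the cattle-yak. Their part in these calls was not tested.

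Of 18 immediate early and heat shock genes 4 were lower and 0 higher (median -0.92). JUN, a part of the AP-1 factor, was at 12799 and 10092 CPM in replicates 3 and 4 and 4581 CPM in the cattle-yak, ratios of 0.358 (0.346–0.3699) and 0.454 (0.438–0.4702). FOS was 3228 and 4527 against 1097 CPM, EGR1 725 and 569.7 against 154 CPM and the chaperone HSPA8 945 and 696 against 319.6 CPM. In mural-like cells 3 of the 18 were lower and 0 higher, among them KLF4 and DUSP1.

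**Figure D4:**
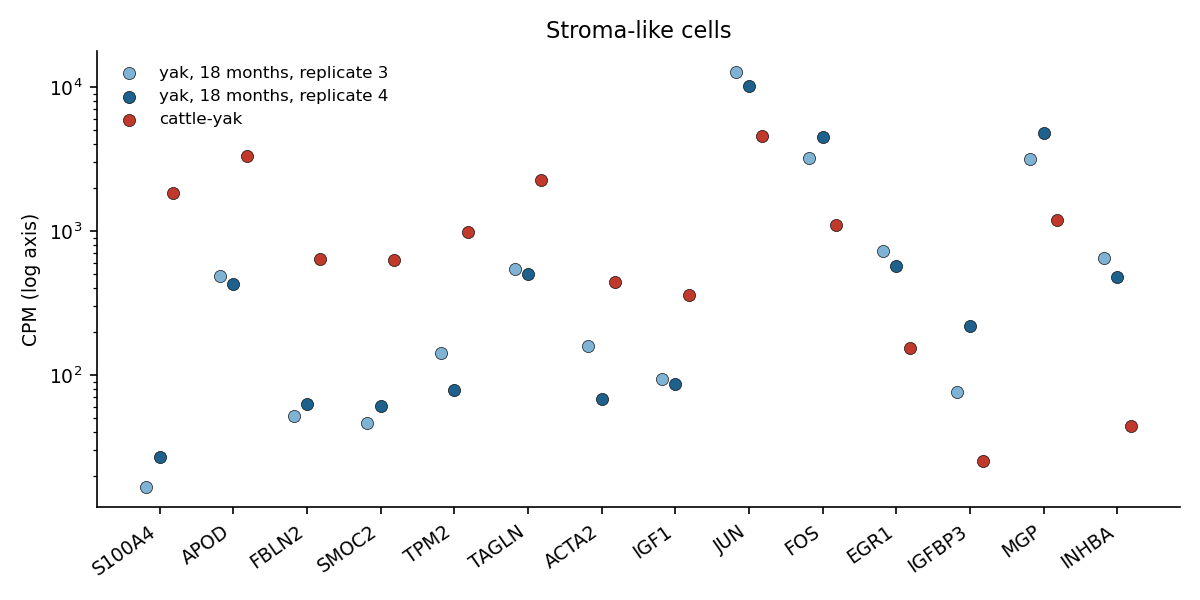
CPM (log axis) of 14 genes in stroma-like cells of replicate 3, replicate 4 and the cattle-yak; each point is 1 library. The cattle-yak is above both yaks from S100A4 (1835 CPM) to IGF1 (361 CPM) and below both from JUN (4581 CPM) to INHBA (44.5 CPM).

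Smooth muscle and pericyte genes were called over the whole cattle-yak library, but not within mural-like cells. Over whole libraries 6 of 14 smooth muscle genes and 2 of 7 pericyte genes were higher and 0 lower. TAGLN was at 1049 and 512 CPM in replicates 3 and 4 and 2554 CPM in the cattle-yak, ratios of 2.44 (2.39–2.48) and 4.98 (4.86–5.12), ACTG2, the actin of visceral muscle, 27.3 and 11.2 against 150.5 CPM and RGS5, a pericyte gene, 40.8 and 43.4 against 277 CPM. Within mural-like cells, 0 of 14 smooth muscle genes and 0 of 7 pericyte genes were called in either direction (medians -0.39 and 0.06). There TAGLN was 12858 and 13339 against 14746 CPM, ACTA2 7602 and 4933 against 4649 CPM and RGS5 799 and 1213 against 1487 CPM.

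Of 4340 features in mural-like cells 68 (1.57%) were higher and 169 (3.89%) lower, or 108 and 112 with TMM scaling, which moved the median from -0.09 to 0.17. Cells lay in clusters 24 and 17, with 121 and 24 cells in replicate 3, 66 and 56 in replicate 4, and 222 and 126 in the cattle-yak. SERPINE2, a protease inhibitor, was at 34.6 and 60.99 CPM in replicates 3 and 4 and 246 CPM in the cattle-yak, ratios of 7.11 (4.36–12.4) and 4.03 (2.47–7.02). MGP was lower, at 4516 and 8108 CPM in replicates 3 and 4 and 1140.5 CPM in the cattle-yak, ratios of 0.253 (0.235–0.271) and 0.141 (0.131–0.151). KLF4, an early response factor of the muscle wall, was 260.2 and 129 against 34.96 CPM, and the IGF binding proteins IGFBP5 (134 and 82.5 against 18.9 CPM) and IGFBP4 (65.04 and 46.6 against 5.67 CPM) were lower as well. EMCN, endomucin, which marks vessel lining, was higher, 6.098 and 0 against 120.0 CPM, and the respiratory chain genes UQCR10 (132 and 78.9 against 13.2 CPM) and COX8A (236 and 147 against 27.4 CPM) were lower. Of 35 measured nuclear genes of oxidative phosphorylation, grouped by symbol, 5 were lower and 0 higher. Their summed level was 7756 and 9959 against 9137 CPM, within the range of the yaks. MGP and IGFBP4 had the same direction in stroma-like cells. Without replicate 3 432 features were called, and without replicate 4 1151, against 237 with both.

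In endothelial-like cells 2 of 18 listed endothelial genes were higher in the cattle-yak, MMRN1 and RELN, and 2 were lower, CLDN5 and SOX18. Of 8442 features 221 (2.62%) were higher and 470 (5.57%) lower (median -0.16). Replicate 3 lay mostly in cluster 15 (601 of 716 cells), replicate 4 in cluster 12 (554 of 643) and the cattle-yak in cluster 26 (452 of 565). Cluster 9, led by CCL21, MMRN1 and RELN, held 0 cells of replicate 3, 22 of replicate 4 (3.42%) and 66 of the cattle-yak, which is 11.7% (9.15–14.6). Without it 189 features were higher and 490 lower. Without replicate 3 1058 were called, and without replicate 4 2353, against 691 with both.

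CCL21, the chemokine that draws lymphocytes to lymphatic vessels, had 0 counts in replicate 3, 79.8 CPM in replicate 4 and 476 CPM in the cattle-yak. MMRN1, multimerin of lymphatic and other endothelium, was 0.559 and 24.5 against 117 CPM and RELN, reelin, 0.559 and 7.26 against 41.5 CPM. The order of the libraries for these genes was that of the share of cluster 9. CXCL12, a chemokine of blood vessels, was at 313 and 319 CPM in replicates 3 and 4 and 929.8 CPM in the cattle-yak, ratios of 2.97 (2.75–3.21) and 2.92 (2.67–3.19). SFRP1, a secreted inhibitor of Wnt signals, was 0.559 and 1.81 against 51.99 CPM, and BMP2 5.31 and 2.72 against 20.5 CPM. CXCL12, SFRP1 and BMP2 were within 4-fold between the yaks and higher in the cattle-yak than in both.

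CLDN5, the claudin of tight vessel walls, was at 48.7 and 43.1 CPM in replicates 3 and 4 and 18.3 CPM in the cattle-yak, ratios of 0.375 (0.2504–0.547) and 0.424 (0.276–0.635), and the vascular transcription factor SOX18 was 33.8 and 24.04 against 8.297 CPM. GPR182, a chemokine scavenger of endothelium, stood at 17.1 and 11.3 CPM and 1 count in the cattle-yak, ratios of 0.0324 (0.000808–0.188) and 0.0488 (0.00119–0.298). General endothelial genes did not pass the 2-fold rule: PECAM1 was 313 and 206 against 311 CPM and VWF 61.8 and 49.4 against 71.9 CPM. Of 10 measured smooth muscle genes 2 were lower, MYL9 and TAGLN, and 1 was higher, TPM2. Their median was 0.89, against -0.16 over all features. TAGLN was 2769 and 923 against 322 CPM, opposite to stroma-like cells. Summed mural markers were 2926 and 1003 against 433 CPM in the class, with 0, 0 and 1 of the 10 markers at 0. The part of these markers was not tested.

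Lymphocyte-like cells were the most numerous class of the cattle-yak, and most listed T cell genes were higher over its whole library. Over whole libraries 14 of 18 T cell and cytotoxic genes were higher and 0 lower (median 1.87). GZMK, granzyme K, was at 14.1 and 12.6 CPM in replicates 3 and 4 and 144 CPM in the cattle-yak, ratios of 10.2 (8.93–11.8) and 11.4 (9.79–13.4). CD3G, of the T cell receptor complex, was 17.2 and 8.09 against 53.6 CPM, CCL5, a chemokine of cytotoxic cells, 300.0 and 406 against 2222 CPM and perforin, PRF1, 1.09 and 0.597 against 4.69 CPM. IFNG, interferon gamma, was 7.71 and 8.88 against 30.6 CPM and IL2RB, an interleukin receptor chain, 43.6 and 21.9 against 136 CPM. Of 14 interferon response genes 3 were higher and 0 lower, or 7 and 0 with TMM scaling. Among them IFI6 was 167 and 200.2 against 807 CPM.

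In CPM of the counts summed over lymphocyte-like cells, the picture was flatter. Of 6725 features 175 (2.6%) were higher and 212 (3.15%) lower (median 0.00), and of the 18 T cell genes 1 was higher and 1 lower. Clusters 20 and 21 held most of the class in replicates 3 (310 and 194 of 534 cells) and 4 (179 and 88 of 279), and clusters 23 and 21 in the cattle-yak (953 and 347 of 1330). GZMK was at 129 and 214 CPM in replicates 3 and 4 and 487 CPM in the cattle-yak, ratios of 3.77 (3.26–4.37) and 2.27 (1.92–2.704). GZMA, granzyme A, was lower, at 17.6 and 20.5 CPM in replicates 3 and 4 and 7.49 CPM in the cattle-yak, ratios of 0.426 (0.218–0.803) and 0.365 (0.169–0.794), but was not called with TMM scaling. CD3G was 161 and 150.2 against 186 CPM, CD3D 288 and 384 against 237 CPM, NKG7 1000.3 and 1798 against 1283 CPM and TRDC, of the gamma-delta receptor, 644 and 1199 against 1006 CPM. None of the last 4 genes was called, and for NKG7 and TRDC the cattle-yak lay between the yaks.

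Beyond that list, S100A4 in lymphocyte-like cells was at 694 and 620.0 CPM in replicates 3 and 4 and 3192 CPM in the cattle-yak, ratios of 4.598 (4.33–4.89) and 5.15 (4.68–5.67). IFI6 was 205 and 235 against 506 CPM and was not called with TMM scaling, the receptor gene CD300H 5.67 and 1.37 against 80.01 CPM and HLA-DOB, of the class II pathway, 3.97 and 4.097 against 37.9 CPM. Of 6 measured activation and checkpoint genes 0 were called (median -0.62). The median cell of the class had 2983.5 and 2400 UMIs in the yaks and 1451.5 in the cattle-yak. Without replicate 3 915 features were called, and without replicate 4 1698, against 387 with both.

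Of 10 listed macrophage genes 4 were higher over the whole library and 0 lower (median 1.02), beside 4.36% of all features higher. CSF1R, the growth factor receptor of macrophages, was 3.39 and 3.91 against 13.6 CPM, and AIF1 8.097 and 11.7 against 60.4 CPM. Macrophage-like cells, all in cluster 8, numbered 50, 50 and 83. Of 1801 features within them 57 (3.16%) were higher and 69 (3.83%) lower, or 112 and 38 with TMM scaling, which moved the median from 0.02 to 0.33. APOE, the lipid carrier, was at 1568 and 503 CPM in replicates 3 and 4 and 4249 CPM in the cattle-yak, ratios of 2.71 (2.36–3.12) and 8.44 (6.32–11.5). GNAS, the stimulatory G protein, was 1041 and 1049 against 3759.7 CPM. C1QA, complement, was 1174 and 4731 against 629.9 CPM and was not called. Of the 8 listed macrophage genes measured within the class, APOE alone was called (median 0.13), and with TMM scaling C3 as well. Without replicate 3 263 features were called, and without replicate 4 526, against 126 with both.

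Some widely expressed genes were lower in the cattle-yak in class after class, and they are named here after their values were seen. Of 1531 features measured in every class, 6 were called lower in each class and 6 higher, the higher ones without a symbol. In 5 classes or more, 32 features were lower and 20 higher. PRDX1, an antioxidant enzyme, CLTA, the clathrin light chain, PARK7, PFN1, profilin, and LAMTOR4 were called lower in each of the 6 classes, which come from the same 3 libraries and are not independent. With TMM scaling PRDX1, PFN1 and LAMTOR4 were lower in 5 of the classes, and CLTA and PARK7 in 4. In endothelial-like cells PRDX1 was 152 and 116 against 39.3 CPM, ratios of 0.259 (0.199–0.332) and 0.3395 (0.257–0.443). PFN1 was 326 and 242 against 49.2 CPM, ratios of 0.151 (0.1203–0.187) and 0.203 (0.161–0.255). PSMB8, of the immunoproteasome, was called lower in 5 of the 6 classes, and in endothelial-like cells it was 322 and 259.9 against 40.9 CPM.

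The other 3 libraries were read for the same genes. In endothelial-like cells PFN1 was at 122 and 382 CPM in yaks of 6 months (replicates 1 and 2) and at 64.6 CPM in the yak of 4 years. PSMB8 was at 77.3 and 331 CPM at 6 months and 62.02 CPM at 4 years. For both genes the cattle-yak, the 4-year yak and replicate 1 of 6 months lay below replicate 2 of 6 months and below both 18-month yaks. Of the 470 features lower in endothelial-like cells of the cattle-yak, 36.8% were at least 2-fold lower in replicate 1 than in replicate 2 of 6 months, against 24.4% of the 221 that were higher and 10.7% of all features measured. In lymphocyte-like cells the same share was 33.5% of 212 lower features against 10.4% of all, and in spermatogonium-like cells 18.03% of 355 against 22.5% of all. The part of such a gap between libraries in the lower calls was not tested.

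**Figure D5:**
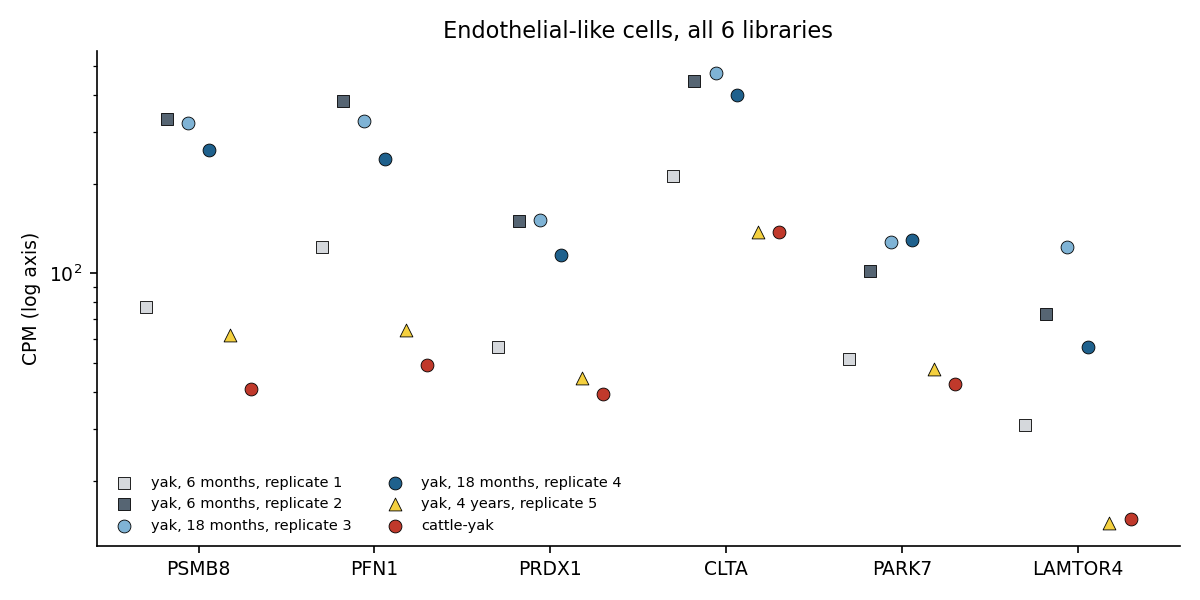
CPM (log axis) of 6 genes in endothelial-like cells of all 6 libraries; each point is 1 library. For PFN1 the cattle-yak (49.2 CPM), the 4-year yak (64.6) and replicate 1 of 6 months (122) lie below the other 3 libraries.

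S100A4, followed over the classes after its stroma value was seen, did not have 1 direction. It was higher in stroma-like and lymphocyte-like cells of the cattle-yak, as given above, and over the whole library (208 and 146 against 1428 CPM). It was also higher in endothelial-like cells, 245 and 325 against 655 CPM, though not with TMM scaling, and in spermatogonium-like cells, 4.02 and 1.35 against 72.6 CPM, where free RNA is a possible source. In macrophage-like cells, at 1155 and 0 against 708 CPM, it was not called. In mural-like cells it was lower, 2344 and 1787 against 712 CPM, ratios of 0.304 (0.277–0.334) and 0.399 (0.356–0.447).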

How the data were processed

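The deposited matrices hold raw UMI counts per gene and barcode, not normalised. They were made by the authors with Cell Ranger, whose version is 5.0.0 per the file headers, whereas the submitters' processing notes name 2.1.1. A build was not given in the sources used here. Of the identifiers 0 were found in the reference table, and names were therefore taken from the files, which give 15722 of 26961 features a symbol, without positions. Members, gene lists and tests were chosen with earlier results of these data known.

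Cells needed at least 300 genes and at most 20% of UMIs on the 37 mitochondrial features. The threshold of Scrublet marked 1, 0 and 0 barcodes, so the barcodes with the highest Scrublet scores (expected rate 0.06), at 0.8% per 1000 barcodes, were removed before clustering. The cells of all 6 libraries were clustered with Python 3.11.15, scanpy 1.11.5 and igraph 0.11.9, using a target of 10000 UMIs per cell, 2000 variable genes, 30 components, 15 neighbours and Leiden resolution 2, with no correction between libraries. A cluster was named where at least 3 markers, and 0.333 of a list, were raised 2-fold (10 CPM added) and found in 2% of cells, and where it led the second-best list by 0.5 (mean log2 fold) or 0.2 (share of markers). Between germ cell stages the lead was 0.25, set after the data were seen. This named 33 of 40 clusters. Names end in "-like" because they were rebuilt from RNA.

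Counts were summed per library and class (classes with at least 50 cells in each of the 3 libraries) and divided by the sum over all features to give CPM. Features needed 50 counts over the 3 libraries, or 30 within a class. Ratios and exact conditional 95% intervals were computed with scipy 1.17.1. A count of 0 was replaced by a floor of 3 counts, and where that floor said nothing of direction the ratio was set to 1, which draws medians towards 0. TMM factors came from edgeR 4.0.16 (R 4.3.3), and no test was run. The call rule was run on simulated libraries with known changes and counting error only. These held no difference between the yak libraries, so they cannot show how the rule performs under the spread between replicates 3 and 4. Free RNA was named as a possible source where a level lay under 20% of that in the highest class. Genes were named by list membership or as markers, or as the 15 highest and 15 lowest ratios over whole libraries with 200 counts and the 8 and 8 within a class with 60 counts. Other names were chosen after their values were seen, as were 3 alternatives (leaving out lymphocyte-like cells, cluster 9, or all but cluster 18 of its class), the spermatocyte-like share of germ cells under other clusterings, the gene families by symbol, and the look at the other 3 libraries. Further alternatives changed the scaling, count minimum, cell filters, resolution and the libraries clustered. Some genes are not reported here.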

Additional observations from a re-analysis of the deposited data

How the results depend on the processing

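Outside spermatogonium-like cells, most calls of the main setting were made again under each alternative tried, but some orders turned. Of the 571 spermatogonium-like calls, 265 were made again with the 3 libraries clustered alone and 245 with cluster 18 alone. Fewer features were measured there, 8196 and 7880 against 11202. Leaving out 1 yak library keeps every call by construction. With the 3 libraries clustered alone, spermatocyte-like cells were 1.40% of cattle-yak cells, below both yaks, and spermatogonium-like calls were 341 higher and 291 lower (216 and 355 in the main setting). With TMM scaling the synaptonemal median was 0.13 (-0.18) and macrophage-like calls were 112 higher and 38 lower (57 and 69). With 1 of the yak libraries left out in turn, the features called numbered 3577 to 6370 over whole libraries (2200 with both), 1058 to 2353 in endothelial-like (691), 915 to 1698 in lymphocyte-like (387), 263 to 526 in macrophage-like (126), 432 to 1151 in mural-like (237), 839 to 1591 in spermatogonium-like (571) and 1264 to 2630 in stroma-like cells (714). These counts rise by construction, since a call then needs 1 library instead of both. With a mitochondrial maximum of 10%, cattle-yak shares were 0% Sertoli-like, 11.4% stroma-like, 6.397% mural-like, 17.1% endothelial-like (33.2% and 26.3% in the yaks), 41.7% lymphocyte-like and 1.97% spermatocyte-like. With a maximum of 40% they were 3.47% Sertoli-like, 12.99% mural-like, 17.1% endothelial-like, above both yaks (13.3% and 14.6%), and 33.3% lymphocyte-like. With at least 500 genes per cell they were 8.65% Sertoli-like, 15.1% stroma-like (36.8% and 14.6% in the yaks), 13.3% mural-like, 19.8% endothelial-like (21.5% and 19.2%), 3.10% macrophage-like, 1.78% spermatogonium-like and 1.82% spermatocyte-like. Sertoli-like cells were 3.93% at resolution 1, 3.93% with doublets kept and 4.20% with the 3 libraries clustered alone. In the same order replicate 3 held 4.17%, 4.15% and 4.32%. The cause of these moves was not tested. Under TMM scaling the named genes moved in 24 cases. No paired analysis was possible because the cattle-yak label carries no replicate number and that group is 1 library. The cattle-yak library is the shallowest, and its 83 spermatogonium-like and 83 macrophage-like cells limit which differences could be called.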

Other observations

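Gene groups outside the comparisons above gave the following values over whole libraries. Of 13 genes of retinoid metabolism 1 was higher and 3 lower (median log2 ratio -0.82), beside 4.36% and 12.4% of all features, and with TMM scaling 1 and 1. CRABP1, which binds retinoic acid in the cell, was at 127 and 123 CPM in replicates 3 and 4 and 56.5 CPM in the cattle-yak, and STRA6, the uptake receptor for retinol, at 5.25 and 7.22 CPM in replicates 3 and 4 and 1.73 CPM in the cattle-yak. RARB, a retinoic acid receptor, was 56.5 and 24.5 against 11.7 CPM, and CYP26B1 was the higher member, 21.8 and 4.18 against 44.1 CPM. Of 25 genes of the TGF-beta, activin and BMP families 2 were lower and 0 higher, a share below that of all features: INHBA, and the receptor BMPR1B at 6.18 and 1.92 against 0.247 CPM. Of 16 genes of replication and mitosis 3 were lower and 0 higher, among them the kinase AURKB at 7.11 and 6.63 against 1.85 CPM. In spermatogonium-like cells 0 of these 16 were called.

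Genes for the nuclear subunits of oxidative phosphorylation were grouped by symbol after the data were seen. Over whole libraries, where 12.4% of all features were lower, 8 of 38 measured members were lower and 0 higher. Their summed level was 7651 and 8482 against 7546 CPM. In endothelial-like cells, where 5.57% of all features were lower, it was again 8 lower and 0 higher of 38, with summed levels of 6579 and 7428 against 7296 CPM. Single members were thus lower while the sum over the family lay within the range of the yaks there. Cytosolic ribosomal protein genes had 0 of 26 members called in endothelial-like cells.

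Several features share the symbol U2, a small nuclear RNA of the spliceosome, and reads may be split between the copies, so their values are uncertain. The copy named by the rule, for its smaller ratio to the 2 yak libraries, was at 0.328 and 1.99 CPM in replicates 3 and 4 and 131 CPM in the cattle-yak over whole libraries. It was at 0.2796 and 0.454 against 86.8 CPM in endothelial-like and at 0.8599 and 1.42 against 171 CPM in stroma-like cells. Over whole libraries some of the other copies were called higher and some were not called. The copy with the most counts was at 0.109 and 138 CPM in replicates 3 and 4 and 273 CPM in the cattle-yak. That copy was not called, and the yaks lay far apart for it.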
